A study of Mus musculus with 16 samples.

Results

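Zbtb17, which encodes the transcription factor Miz1, was examined in mouse hearts together with 3 genes tied to it, Csrp3, Myc and Max. The genes were taken by symbol, as every probe set listed with that symbol alone. This gave 4 probe sets, 1 per gene, of 35556 on the array. All 4 had a mean above the limit for dim probe sets and were tested among 21333.

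Gene expression was measured on 1 array per mouse in 16 male mice of the C57BL/6 background, with 4 mice in each of 4 groups. The groups were Zbtb17 cKO mice after transverse aortic constriction (cKO TAC), Zbtb17 cKO mice after a sham operation (cKO sham), control mice after constriction (control TAC) and control mice after sham (control sham). The surgery was done at 8 to 10 weeks of age, and hearts were collected 4 weeks later. Transverse aortic constriction narrows the aorta, so that the left ventricle pumps against a higher pressure. The name cKO usually stands for a conditional knockout, in which a recombinase deletes a gene in chosen cells. The recombinase, the cells it acts in, the deleted part of Zbtb17 and the exact genotype of the controls are not given in the sources used here. The labels give the tissue as heart, which holds several cell types, so fewer cells of a type and less RNA per cell cannot be told apart.

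Miz1 binds DNA through zinc fingers and can switch genes on by itself. When it binds Myc, a growth-promoting transcription factor, the complex represses genes that Miz1 alone would activate, among them inhibitors of the cell cycle. Myc in turn binds DNA as a pair with Max, its obligate partner, at the sequence CACGTG. Csrp3 encodes muscle LIM protein, which sits at the Z-disc of heart and skeletal muscle, also enters the nucleus, has been reported to bind Miz1, and is a known cardiomyopathy gene.

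The promoter windows of the genes that the results turn on are shown first, since they hold the site through which Myc and Max act or lack it. Each covers 300 bases around an annotated start of the gene, most of them before it, read 5′ to 3′ on the strand of the gene, from RefSeq on build GRCm38.p6. Capitals mark matches to CACGTG. In Csrp3 they mark matches to TATANA, a core promoter pattern searched, like the other, on both strands. The Max window lies at chr12:76962199-76962498 on the minus strand, that of Csrp3 at chr7:48848002-48848301 on the minus strand, and that of Vamp4, a gene with reported Miz1 binding at its promoter, at chr1:162570265-162570564 on the plus strand.
Max: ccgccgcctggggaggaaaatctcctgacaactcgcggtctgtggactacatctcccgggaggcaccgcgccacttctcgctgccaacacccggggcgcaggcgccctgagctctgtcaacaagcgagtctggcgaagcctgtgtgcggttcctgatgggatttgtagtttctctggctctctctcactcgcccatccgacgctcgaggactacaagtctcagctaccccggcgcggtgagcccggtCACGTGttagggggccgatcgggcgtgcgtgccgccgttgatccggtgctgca
Vamp4: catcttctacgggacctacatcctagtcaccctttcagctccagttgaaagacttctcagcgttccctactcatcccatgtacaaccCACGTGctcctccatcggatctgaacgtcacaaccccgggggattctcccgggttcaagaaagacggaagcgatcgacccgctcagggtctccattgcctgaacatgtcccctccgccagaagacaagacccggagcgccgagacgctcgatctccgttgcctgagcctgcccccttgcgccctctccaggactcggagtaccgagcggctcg
Csrp3: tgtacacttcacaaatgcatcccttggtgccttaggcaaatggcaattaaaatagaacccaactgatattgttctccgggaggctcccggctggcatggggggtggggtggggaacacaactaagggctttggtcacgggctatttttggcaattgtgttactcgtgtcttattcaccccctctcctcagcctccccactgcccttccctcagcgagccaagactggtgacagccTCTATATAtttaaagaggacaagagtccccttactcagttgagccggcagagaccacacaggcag
CACGTG occurred once in the Max window, starting at position -3, and once in the Vamp4 window, at -163, where -1 is the last base before the start. Of all 32851 windows in the table, 7.15% held it. The Csrp3 window and that of Zbtb17 (chr4:141444423-141444722, plus strand, 59% G or C) held no CACGTG. The Csrp3 window held 2 overlapping matches to TATANA, at -15 and -13, and 24.7% of all windows held at least 1. For Zbtb17, Csrp3 and Vamp4 the table lists 2 windows each, and the one listed first was used. No window was listed for Myc. These matches describe the sequence and are not measured binding.

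The arrays were checked for what they hold. Their medians lay between 4.85 and 4.975 on the log2 scale, and Spearman correlation between arrays was 0.972 to 0.987. The 8 cardiomyocyte markers were bright on every array, as in Tnnt2, a thin filament gene, at 13.40 to 13.62. Of 8 skeletal muscle genes, Myh1 and Mylpf stayed below the limit for dim probe sets (4.37) on all 16 arrays, Myh2 passed it on 1 and Myh4 on 10. Actn3 (4.60 to 4.84), Tnnt3 (5.18 to 5.68), Tnni2 (5.92 to 6.43) and Mybpc2 (6.07 to 8.32) were above it on all 16. Myl7, an atrial myosin light chain gene, was at 6.07 to 8.83 in 6 arrays, spread over all 4 groups, and at 4.30 to 5.20 in the other 10. The mean of 6 genes of pressure overload, among them Nppa and Nppb, ran from 10.51 to 12.31 in cKO TAC and 10.52 to 11.15 in cKO sham hearts, and from 9.80 to 11.50 in control TAC and 10.14 to 11.02 in control sham hearts. The TAC and sham ranges of this mean thus overlapped in both genotypes, and the lowest of the 16 came from a TAC heart, control TAC replicate 1. The mean of 6 macrophage genes ran from 7.21 to 8.07 in cKO TAC and 6.93 to 7.16 in cKO sham hearts, and from 7.32 to 8.04 in control TAC and 6.80 to 7.53 in control sham hearts. The part of other cell types in the TAC differences below was not tested. The labels give no batch.

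Across 7 comparisons and 4 genes, 28 differences in all, limma called 0 at an adjusted p under 0.05. Without adjustment 1 of the 28 had a p under 0.05, that of Zbtb17 after sham, and the smallest adjusted p was 0.361. The shares of all tested probe sets called were also small. For cKO against control they came to 0.0234% after sham, 0.00469% after TAC and 0.0188% for the average of both surgeries. The share was 0% for TAC against sham in cKO hearts, in control hearts and averaged over genotype, and 0% for the interaction, which is the difference between the genotypes in their response to surgery. The values of the groups overlapped for each of the 4 genes in each of the 6 comparisons of groups. Without adjustment a p under 0.05 was reached by 7.58% of all tested probe sets for cKO against control after TAC, by 14.9% averaged over surgery, by 6.78% for TAC against sham in cKO hearts, by 8.32% in control hearts, by 12% averaged over genotype and by 3.7% for the interaction. For cKO against control averaged over surgery, 0.0141% were called lower.

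**Figure D1:**
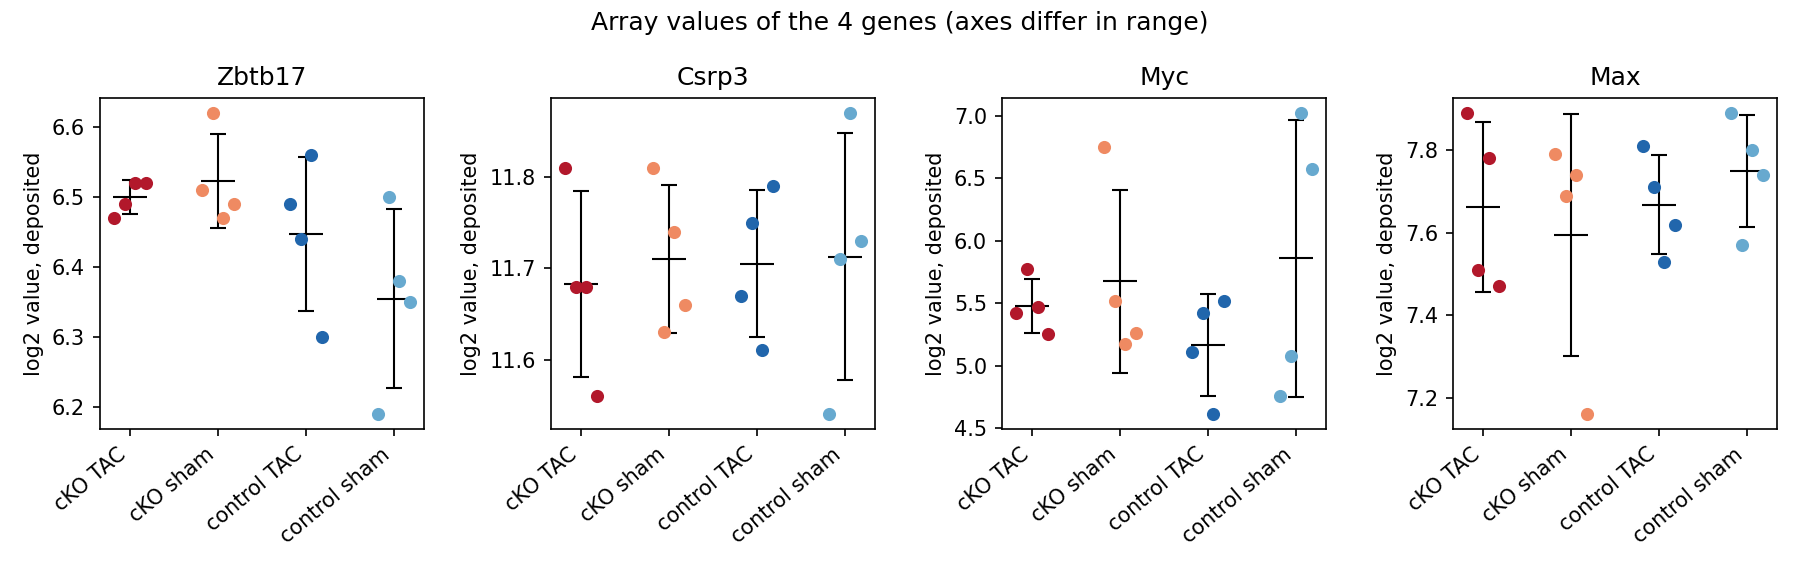
Log2 values of Zbtb17, Csrp3, Myc and Max on the 16 arrays, 1 point per mouse, by group, with the mean and SD of each group (n = 4) in black. The vertical axes differ in range. Zbtb17 and Csrp3 vary least, while Myc reaches 7.02 in 1 sham heart and 4.61 in 1 TAC heart.

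Zbtb17, the targeted gene, was not lower in the cKO arrays. Its log2 values (probe set 10509998) were 6.47, 6.49, 6.52 and 6.52 in cKO TAC hearts and 6.51, 6.62, 6.47 and 6.49 in cKO sham hearts. They were 6.49, 6.44, 6.56 and 6.30 in control TAC hearts and 6.19, 6.50, 6.38 and 6.35 in control sham hearts. The 8 cKO arrays thus sat in a narrow band from 6.47 to 6.62, and the control arrays reached from below that band into it. Averaged over surgery the difference was 0.11 ± 0.06 (SE), higher in cKO hearts, with a 95% interval of -0.0069 to 0.23 and an adjusted p of 0.361. As a fold that interval runs from 0.995 to 1.17. After sham the difference was 0.17 ± 0.08 (95% interval 0.0022 to 0.33), with an unadjusted p of 0.0474 and an adjusted p of 0.465. An unadjusted p under 0.05 was reached by 10.7% of all tested probe sets in that comparison. After TAC it was 0.05 ± 0.08 (adjusted p = 0.919). Since the deleted part of the gene is unknown, and with it whether the probes lie inside it, these values do not check the labels of genotype.

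Surgery left Zbtb17 within the spread of the mice. TAC against sham gave -0.02 ± 0.08 in cKO hearts (adjusted p = 0.975) and 0.09 ± 0.08 in control hearts (adjusted p = 0.764). The interaction was -0.12 ± 0.11 (95% interval -0.35 to 0.12, adjusted p = 1). Within groups the SD of Zbtb17 was 0.0915, and 7.88% of tested probe sets had a smaller one. The control groups, with SDs of 0.11 after TAC and 0.13 after sham, were wider than the cKO groups, with 0.02 after TAC and 0.07 after sham (n = 4 each), a difference in spread that was not tested.

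Csrp3 held nearly the same level in all groups. Its log2 values (probe set 10563770) were 11.81, 11.68, 11.68 and 11.56 in cKO TAC hearts and 11.81, 11.63, 11.74 and 11.66 in cKO sham hearts. They were 11.67, 11.75, 11.61 and 11.79 in control TAC hearts and 11.54, 11.71, 11.87 and 11.73 in control sham hearts. Both the lowest and the highest of the 16 values came from control sham hearts. The difference between cKO and control averaged over surgery was -0.01 ± 0.05 (adjusted p = 0.932), and its 95% interval as a fold was 0.919 to 1.07. TAC against sham averaged over genotype gave -0.02 ± 0.05 (adjusted p = 0.922), with a fold interval of 0.916 to 1.07. The 4 comparisons of single groups lay between -0.03 and -0.0025, and the interaction was -0.02 ± 0.10 (adjusted p = 1). The sign of such small differences changed with the scaling of the arrays and with the loss of single arrays, and the deposited values have steps of 0.01. A change smaller than these intervals could not be told from 0 with 4 mice per group.

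Max, the partner of Myc, did not differ between groups beyond its spread either. Its log2 values (probe set 10401128) were 7.89, 7.51, 7.78 and 7.47 in cKO TAC hearts and 7.79, 7.69, 7.74 and 7.16 in cKO sham hearts. They were 7.81, 7.71, 7.53 and 7.62 in control TAC hearts and 7.89, 7.57, 7.80 and 7.74 in control sham hearts. The cKO sham heart of replicate 4 was the lowest of all 16, and the other 15 lay between 7.47 and 7.89. cKO against control gave -0.16 ± 0.13 after sham (95% interval -0.44 to 0.13, adjusted p = 0.694), and -0.01 without cKO sham replicate 4. After TAC it was -0.005 ± 0.13 (adjusted p = 0.997), and averaged over surgery -0.08 ± 0.09 (adjusted p = 0.720). TAC against sham gave 0.07 ± 0.13 in cKO hearts (adjusted p = 0.950), with the opposite sign, -0.08, when that array was left out. In control hearts it was -0.08 ± 0.13 (adjusted p = 0.892). The interaction was 0.15 ± 0.19 (adjusted p = 1).

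**Figure D2:**
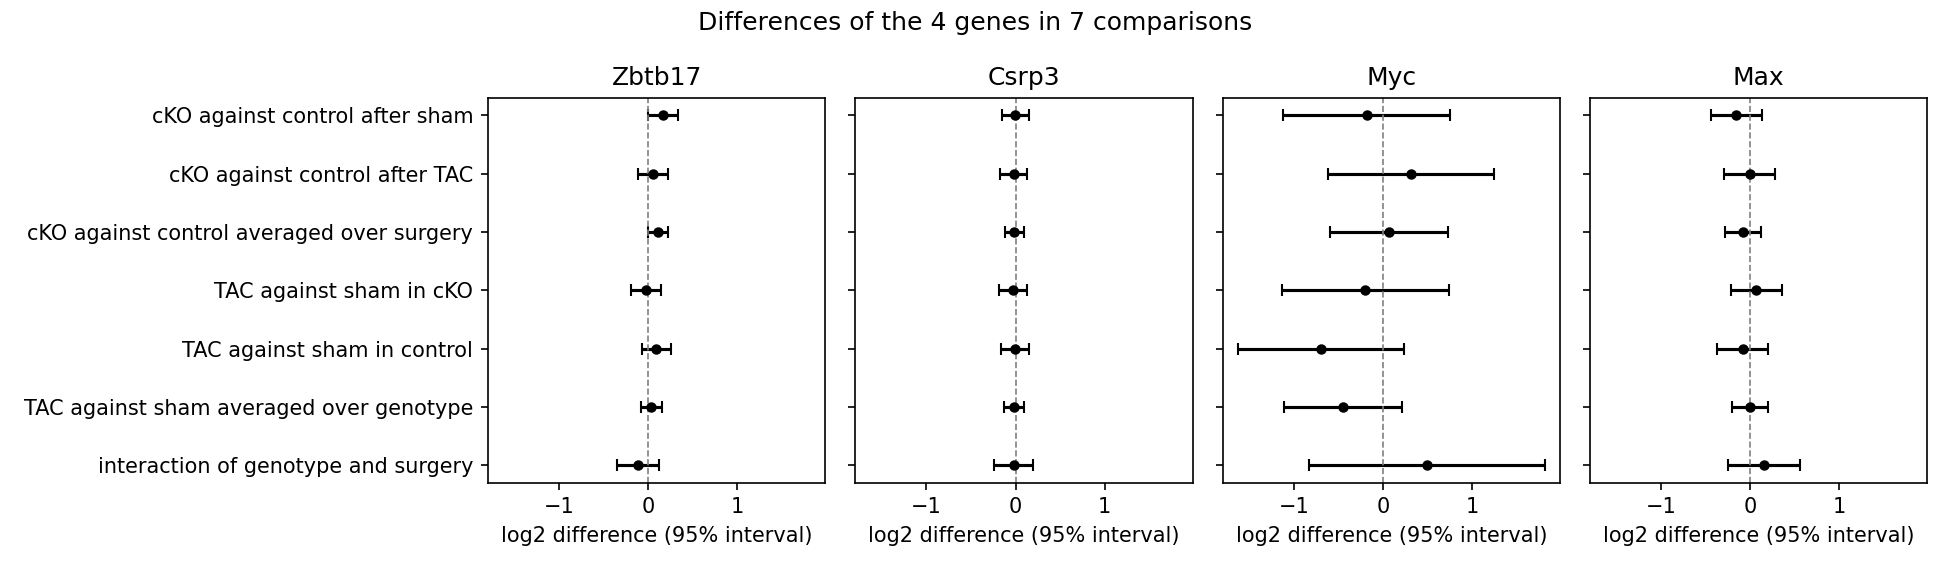
Log2 differences of the 4 genes in the 7 comparisons (first group minus second), with 95% intervals from the limma fit on all 16 arrays. Intervals of Csrp3 and Zbtb17 are short, those of Myc reach from -1.63 to 1.81, and 0 lies outside the interval only for Zbtb17 after sham, where the adjusted p is 0.465.

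Myc varied from mouse to mouse far more than the other 3 genes. Its log2 values (probe set 10424400) were 5.42, 5.77, 5.47 and 5.25 in cKO TAC hearts and 6.75, 5.52, 5.17 and 5.26 in cKO sham hearts. They were 5.11, 5.42, 4.61 and 5.52 in control TAC hearts and 4.76, 5.08, 7.02 and 6.57 in control sham hearts. One cKO sham heart and 2 control sham hearts stood at 6.57 to 7.02, and the other 13 hearts, sham and TAC, lay between 4.61 and 5.77. The SD within groups was 0.702, and 99.2% of tested probe sets had a smaller one.

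The largest Myc difference was that of TAC against sham in control hearts, and no comparison passed. In control hearts Myc averaged 5.17 ± 0.41 after TAC and 5.86 ± 1.11 after sham (SD, n = 4 each), a difference of -0.69 ± 0.44 (SE, 95% interval -1.63 to 0.24, adjusted p = 0.690). Without single arrays it ran from -1.06 (without control sham replicate 1) to -0.305 (without control sham replicate 3). A larger difference in size was seen there in 0.825% of tested probe sets, but Myc also had a larger SD within groups than 99.2% of them. The unadjusted p of this difference in the limma fit was 0.135. In cKO hearts Myc averaged 5.48 ± 0.22 after TAC and 5.68 ± 0.73 after sham, a difference of -0.20 ± 0.44 (adjusted p = 0.957). Averaged over genotype the difference was -0.445 ± 0.31 (adjusted p = 0.586), and the interaction was 0.50 ± 0.62 (95% interval -0.82 to 1.81, adjusted p = 1). cKO against control gave -0.18 ± 0.44 after sham (adjusted p = 0.909), 0.31 ± 0.44 after TAC (adjusted p = 0.913) and 0.06 ± 0.31 averaged over surgery (adjusted p = 0.942).

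The same 3 sham hearts had the 3 highest values of 5 of the 12 listed immediate early genes, which are switched on quickly by stress. These were Atf3, Btg2, Fos, Jun and Zfp36. The share of all tested probe sets with their 3 highest values in these hearts was not computed, so this count has no background. Atf3, a stress-induced transcription factor gene, was at 9.58 in cKO sham replicate 1, and at 10.18 and 8.45 in control sham replicates 3 and 4. It was at 6.13 to 7.26 in the other 13 hearts. The mean of all 12 listed immediate early genes, Atf3 among them, was 7.27 in cKO sham replicate 1, and 7.43 and 7.16 in control sham replicates 3 and 4, the 3 highest of 16. In the other hearts it ran from 6.38 to 7.0. Without Atf3, the mean of the remaining 11 was 7.04 to 7.18 in the 3 hearts and 6.38 to 6.98 in the other 13. The other 7 genes did not separate these hearts. Egr1, for example, was at 7.17 to 8.36 in the 3 hearts and 6.54 to 8.13 in the other 13, and Nr4a1 at 7.59 to 8.03 and 6.69 to 8.59. By group the mean of all 12 genes ranged from 6.38 to 6.58 in cKO TAC and 6.41 to 7.27 in cKO sham hearts. In control hearts this mean ranged from 6.58 to 6.88 after TAC and 6.51 to 7.43 after sham. Whether the state of the hearts at collection took part in the Myc values was not tested. Without these 3 arrays, an alternative added after seeing the data, TAC against sham in Myc had the opposite sign, at 0.24 in control hearts, 0.16 in cKO hearts and 0.20 averaged over genotype. cKO against control after sham was then 0.40 (adjusted p = 0.483), and averaged over surgery 0.35 (adjusted p = 0.249). Leaving out hearts by Atf3 also leaves out the highest Myc values, and 2 control sham hearts remain.

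**Figure D3:**
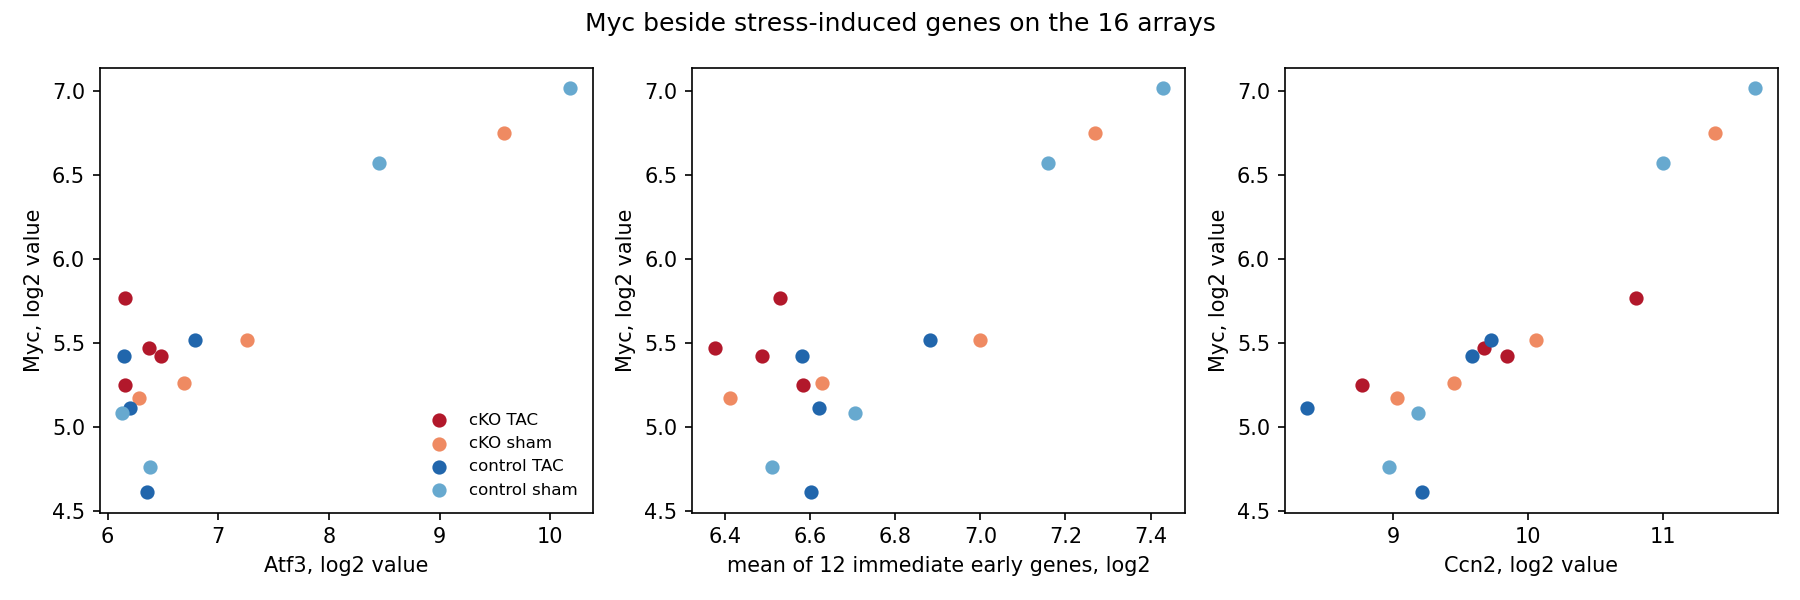
Log2 value of Myc (vertical axis) against Atf3, the mean of 12 immediate early genes and Ccn2 on the 16 arrays, 1 point per heart, coloured by group. Myc lies between 6.57 and 7.02 in 1 cKO sham and 2 control sham hearts, which also have the 3 highest values on each horizontal axis. The axes are not independent: Atf3 is part of the mean of 12, and Ccn2 was picked for its high r with Myc.

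The 3 named genes most like each of the 4 genes over the 16 arrays were found by Pearson's r among 15021 probe sets with 1 symbol. These r values are the highest of that many and are a description only. For Myc they were Rnd3, a small GTPase gene (r = 0.916), Ccn2, which encodes connective tissue growth factor (r = 0.912), and Rbm47, an RNA-binding protein gene (r = 0.911). Ccn2 ran from 8.36 to 11.68 and had its 3 highest values in those sham hearts, at 11.38 in cKO sham replicate 1 and up to 11.68 in control sham. Rbm47 moved between 4.42 and 4.90 only, near the dim end of the array. For Zbtb17 the genes were Ttbk2, a kinase gene (r = 0.920), Jade1 (r = 0.861) and Sf3b2, a splicing factor gene (r = 0.854). For Csrp3 they were Rasl11b (r = 0.856), C2cd2l (r = 0.841) and Dok7, an adaptor gene of the neuromuscular junction (r = 0.834), and for Max they were Kctd6 (r = 0.796), Sox7, a transcription factor gene of blood vessels (r = 0.788), and Stx5a, a Golgi SNARE gene (r = 0.787). None of the 4 genes was among the 3 most like another of them.

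Whether the 4 genes moved together from heart to heart was tested over the 16 arrays for 6 pairs. By Pearson's r 1 pair passed, and by rho no pair did. Csrp3 and Myc had r = 0.69 (permutation p = 0.00324, adjusted over the 6 pairs 0.0194) and rho = 0.62 (permutation p = 0.0126, adjusted 0.0754). Myc lies in separate clusters of arrays, however, and the 3 sham hearts of high Myc had Csrp3 at 11.81, 11.87 and 11.73. Within the other 13 hearts, an alternative added after seeing the data, r was 0.49 (permutation p = 0.0862, adjusted 0.517) and rho 0.42 (permutation p = 0.150, adjusted 0.300). Without the 2 hearts farthest from the median of Csrp3, r was 0.49 (adjusted permutation p = 0.110). By Pearson's r the relation passed over all arrays and on deviations from group means (r = 0.73, adjusted permutation p = 0.00816). Those deviations were permuted over all 16 arrays, although the SD of Myc ran from 0.22 in cKO TAC to 1.11 in control sham hearts. On deviations from group means within the 13 hearts r was 0.54, which was not tested. By rho the relation did not pass over all arrays. It also did not pass without those 2 hearts or within the 13.

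The other 5 pairs did not pass. Myc and Max, which act as a pair of proteins, had r = 0.24 (permutation p = 0.372, adjusted 0.558) and rho = 0.11 (permutation p = 0.693, adjusted 0.693), and r was 0.056 without the 2 hearts farthest from the median of Myc. Within the 13 hearts r was -0.07 (permutation p = 0.827, adjusted 0.975). Zbtb17 and Myc had r = -0.10 (permutation p = 0.712, adjusted 0.726) and rho = -0.15 (permutation p = 0.574, adjusted 0.689), with r = -0.57 without the 2 hearts of most extreme Zbtb17 and 0.20 within the 13. Within the same 13 hearts rho was -0.0069, and r on deviations from group means was -0.17. The sign of the relation between Zbtb17 and Myc thus differed with the hearts included and with the measure used. Zbtb17 and Csrp3 had r = -0.10 (permutation p = 0.726, adjusted 0.726) and rho = -0.39 (permutation p = 0.134, adjusted 0.252), and r was -0.62 without those 2 hearts (adjusted permutation p = 0.0994). Zbtb17 and Max had r = -0.33 (permutation p = 0.208, adjusted 0.473) and rho = -0.41 (permutation p = 0.118, adjusted 0.252), with -0.25 without the 2 hearts. Csrp3 and Max had r = 0.32 (permutation p = 0.237, adjusted 0.473) and rho = 0.36 (permutation p = 0.168, adjusted 0.252), with 0.53 without 2 hearts.

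The genes around these 4 were taken from 5 lists and read in the same fit. Across all lists and all 7 comparisons, limma called 0 members in either direction. Medians of the lists are given beside the median of all tested probe sets, which was -0.0037 for cKO against control averaged over surgery and 0.010 for TAC against sham averaged over genotype.

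Of the genes with reported Miz1 binding at their promoters, 9 were tested. Cdkn1a shares its probe set with other symbols and was not used here. In cKO against control averaged over surgery, 3 were positive and 6 negative, with a median of -0.03. The lowest was Vamp4, which encodes a vesicle SNARE of the trans-Golgi network. Vamp4 (probe set 10351119) had log2 values of 7.35, 7.49, 7.57 and 7.34 in cKO TAC hearts and 7.37, 7.43, 7.59 and 7.64 in cKO sham hearts. It had 8.29, 7.85, 8.10 and 7.90 in control TAC hearts and 8.47, 7.92, 7.71 and 7.79 in control sham hearts. All 8 cKO hearts, at 7.34 to 7.64, were below all 8 control hearts, at 7.71 to 8.47. Such a separation with cKO lower occurred in 12 of 21333 tested probe sets, or 0.0563%, and with cKO higher in 10, or 0.0469%. Of the 9 genes, Vamp4 alone was separated so. The list was chosen with earlier results of these data known, so this count is a description and not a test of the list.

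The Vamp4 difference averaged over surgery was -0.53 ± 0.10 (SE, 95% interval -0.75 to -0.32), with an adjusted p of 0.0942 that did not pass. After sham it was -0.465 ± 0.14 (adjusted p = 0.347), or -0.30 without control sham replicate 1, and after TAC -0.60 ± 0.14 (adjusted p = 0.464). Over 26 alternatives the averaged difference ran from -0.62 to -0.45 and its adjusted p from 0.0373 to 0.731, and it passed in 1 of them, without control sham replicate 4 (adjusted p = 0.0373). TAC against sham gave -0.0038 ± 0.10 in Vamp4 (adjusted p = 0.993). Ambra1, which encodes a regulator of autophagy, was at 6.80, 6.79, 6.50 and 6.76 in cKO TAC hearts and 6.87, 6.74, 6.76 and 6.74 in cKO sham hearts. It was at 6.90, 6.74, 6.72 and 6.80 in control TAC hearts and 7.03, 6.88, 6.99 and 6.95 in control sham hearts. The sham groups did not overlap, with cKO at most 6.87 and control at least 6.88, and the TAC groups did. Such a separation of 4 against 4 after sham, with cKO lower, occurred in 2.32% of all tested probe sets. Mnt and Ccnd1, on the lists below, were separated in the same way. The averaged difference of Ambra1 was -0.13 ± 0.06 (adjusted p = 0.287). Itgb1, an integrin gene, was at 0.09 ± 0.05 (adjusted p = 0.447). In TAC against sham averaged over genotype 5 of the 9 were positive and 4 negative (median 0.015). Ambra1 was at -0.12 ± 0.06 (adjusted p = 0.411) and Cdkn2b, a cell cycle inhibitor gene that is a classic Miz1 target, at 0.08 ± 0.08 (adjusted p = 0.693).

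**Figure D4:**
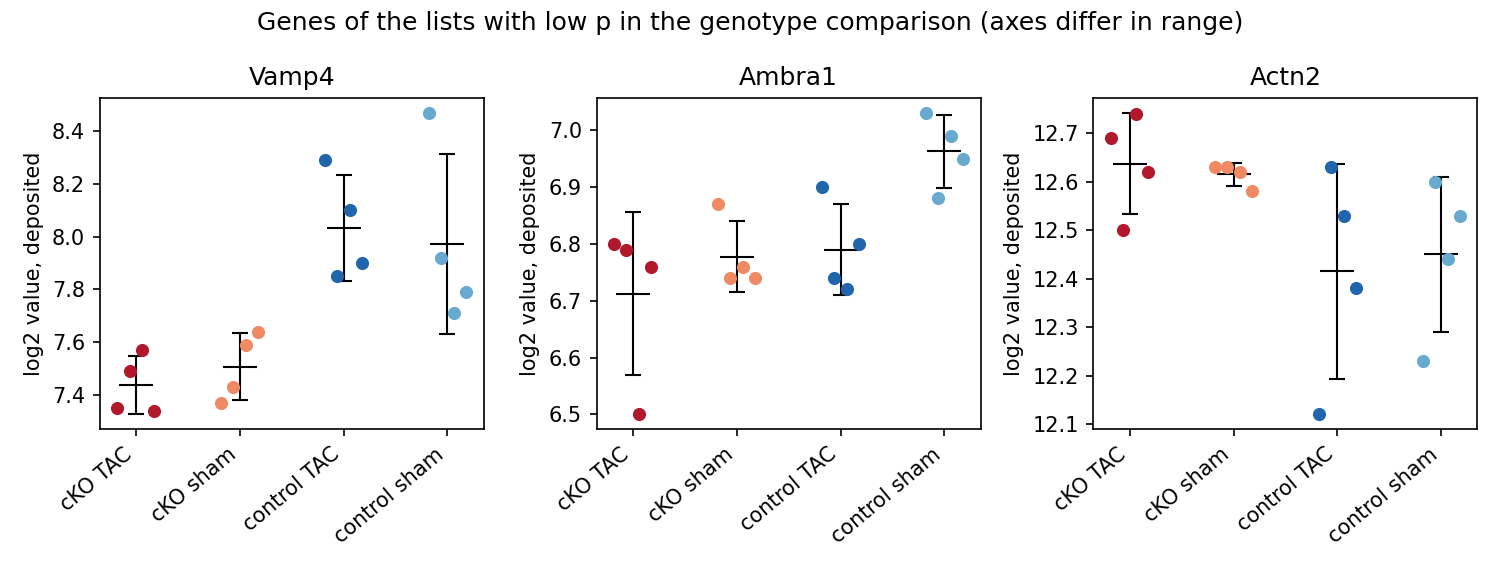
Log2 values of Vamp4, Ambra1 and Actn2 on the 16 arrays, 1 point per heart, by group, with mean and SD (n = 4) in black, on axes of different range. Vamp4 lies at 7.34 to 7.64 in the 8 cKO hearts and at 7.71 to 8.47 in the 8 control hearts, and the genotypes overlap in the other panels.

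Targets that Myc is reported to activate were mostly positive in cKO against control, with 13 of 18 tested members positive averaged over surgery, where 48.8% of all tested probe sets were positive. Of the 20 listed, Ppan shares its probe set with other symbols and Tert was below the limit for dim probe sets. Their median was 0.05. Eif4a1, a translation initiation helicase gene, was at 0.13 ± 0.04 (adjusted p = 0.195), Ncl, which encodes nucleolin, at 0.18 ± 0.06 (adjusted p = 0.225), and Npm1, which encodes nucleophosmin, at 0.21 ± 0.08 (adjusted p = 0.260). Npm1 ran from 8.27 to 8.59 in the 8 cKO hearts (median 8.49) and from 7.98 to 8.52 in the 8 control hearts (median 8.25), so the genotypes overlapped. After surgery 12 of 18 were positive in TAC against sham averaged over genotype (53.9% of all tested), with a median of 0.01. Cdk4, a cell cycle kinase gene, was at 0.16 ± 0.04 (adjusted p = 0.233), Eif4a1 at 0.11 ± 0.04 (adjusted p = 0.329) and Ccnd1 at 0.20 ± 0.10 (adjusted p = 0.437). Cdk4 ran from 9.54 to 9.78 in the 8 TAC hearts (median 9.57) and from 9.38 to 9.59 in the 8 sham hearts (median 9.46).

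The Myc-Max-Mxd network holds relatives that compete with Myc for Max or form parallel pairs, and all 11 were tested. In cKO against control averaged over surgery 6 were positive and 5 negative (median 0.010). Mlxip, a glucose-sensing relative, was at 0.16 ± 0.06 (adjusted p = 0.252), Mnt, a repressor that pairs with Max, at -0.10 ± 0.04 (adjusted p = 0.278), and Mycn, a Myc paralog, at -0.13 ± 0.08 (adjusted p = 0.418). In TAC against sham averaged over genotype 8 were positive and 3 negative (median 0.03). Mga, a repressor that also pairs with Max, was at -0.26 ± 0.07 (95% interval -0.40 to -0.12, adjusted p = 0.233). Its 8 TAC hearts ran from 7.71 to 8.01 and its 8 sham hearts from 7.96 to 8.35. Mxd3 was at 0.16 ± 0.06 (adjusted p = 0.346) and Mxd4 at 0.09 ± 0.07 (adjusted p = 0.618).

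Proteins other than Myc that are reported to bind Miz1 were covered by 9 genes, all tested. In cKO against control averaged over surgery 4 were positive and 5 negative (median -0.04). Rpl23, a ribosomal protein gene, was at -0.14 ± 0.05 (adjusted p = 0.233). Npm1, given above, is also on this list. Huwe1, the gene of a ubiquitin ligase that acts on Miz1, was at 0.21 ± 0.09 (adjusted p = 0.280). Huwe1 ran from 9.29 to 9.70 in the 8 cKO hearts and from 9.07 to 9.66 in the 8 control hearts. After surgery 3 were positive and 6 negative in TAC against sham averaged over genotype (median -0.01). Rpl23 was at -0.09 ± 0.05 (adjusted p = 0.503), Huwe1 at -0.13 ± 0.09 (adjusted p = 0.575) and Bcl6, a transcriptional repressor gene, at -0.18 ± 0.22 (adjusted p = 0.780). The Bcl6 value was 0.27 without the 3 sham hearts of high Atf3.

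The Csrp family and reported partners of Csrp3 numbered 14, all tested, with 7 positive and 7 negative in cKO against control averaged over surgery (median 0.02). The Z-disc gene Actn2, which encodes alpha-actinin, was at 0.19 ± 0.07 (95% interval 0.049 to 0.34, adjusted p = 0.222). It ran from 12.50 to 12.74 in the 8 cKO hearts (median 12.63) and from 12.12 to 12.63 in the 8 control hearts (median 12.49). Nrap, a gene of muscle attachment sites, was at 0.29 ± 0.10 (adjusted p = 0.229), with 10.56 to 11.04 in cKO hearts and 10.14 to 10.94 in control hearts, and Kat2b, an acetyltransferase gene, at 0.09 ± 0.05 (adjusted p = 0.429). In Actn2 and Nrap the lowest control hearts were control TAC replicate 1 (12.12 and 10.30) and control sham replicate 1 (12.23 and 10.14). The same hearts were the highest controls in Vamp4 and Rpl23. Actn2 was at 0.14 without control TAC replicate 1, and Nrap at 0.22 without control sham replicate 1. The 8 cardiomyocyte markers had a mean of 12.70 to 13.01 in cKO TAC and 12.67 to 12.91 in control TAC hearts, and of 12.985 to 13.04 in cKO sham and 12.73 to 12.979 in control sham hearts. In the sham hearts the lowest cKO mean, 12.985, was just above the highest control mean, 12.979. How often probe sets separate so after sham, with cKO higher, was not counted. The part of the cardiomyocyte markers in the differences of Actn2 and Nrap was not tested. In TAC against sham averaged over genotype 8 of the 14 were positive and 6 negative (median 0.0075). Myod1, a myogenic factor gene of skeletal muscle, was at -0.11 ± 0.05 (adjusted p = 0.421), and the Csrp3 paralogs Csrp1 and Csrp2 were at 0.14 ± 0.12 (adjusted p = 0.668) and 0.16 ± 0.16 (adjusted p = 0.715). Without cKO TAC replicate 2 they were at 0.056 and 0.022.

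**Figure D5:**
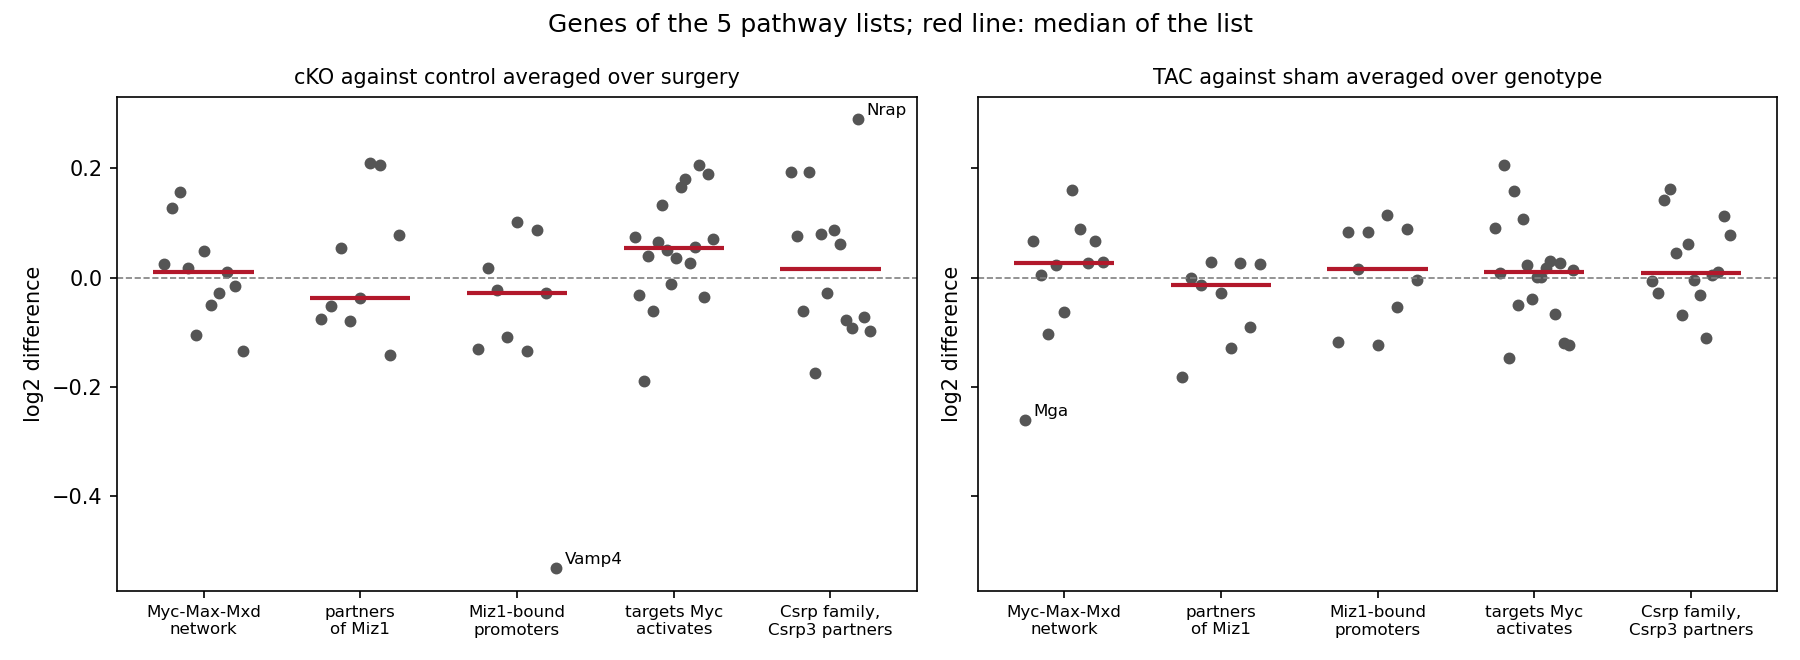
Log2 differences of the tested members of 5 gene lists, 1 point per gene, for cKO against control averaged over surgery (left) and TAC against sham averaged over genotype (right), with the median of each list as a red line. The medians lie between -0.04 and 0.05, and the point farthest from 0 is Vamp4 at -0.53.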

How the data were processed

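Heart RNA was hybridised to Affymetrix arrays, 1 per mouse, with biotin labelling per the labels' protocols. The deposited values are log2 signals made by the authors. The base was read from the values, because on base e the highest would exceed what an array scanner records. MAS5 is named, without a version, in the submitters' processing notes. Medians nearly coincide between arrays, so shifts shared by all genes may have been removed by scaling, whose method no source used here gives. Replicates carry no statement on litters or batches, so p-values measure the spread between these mice.

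Groups came from the sample titles. Gene names came from the platform annotation, updated through Entrez ID to RefSeq GRCm38.p6 names (21698 of 21789 probe sets with 1 symbol matched), and 1621 probe sets with several symbols were left unnamed. Probe sets with a mean above the 40th percentile (4.37) were tested. limma 3.58.1 in R 4.3.3 fitted 4 group means (12 residual degrees of freedom) with a mean-variance trend, two-sided, with Benjamini-Hochberg adjustment over 21333 probe sets. Intervals are 95% intervals of the fit. On simulated data the fit was checked only for returning the size of added differences in the median. That check does not tell how many changes of a given size would be called. Correlations used 100000 permutations, two-sided (scipy 1.17.1). Lists took the brightest probe set per gene. Named list genes are, per list, up to 3 of smallest p in each averaged comparison. The 3 most alike genes per member were taken by Pearson's r. Members and lists were chosen with earlier results of these data known.

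Same-numbered arrays were checked for pairing. Of 24 pairs, 6 had deviations correlated above 0.1. The median r was -0.03 in these 24 pairs and 0.015 in pairs of unlike number, so the numbers were not used to pair mice. Alternatives were a replicate block, array weights, a stricter filter on dim probe sets (60th percentile) or none, a fit of just the groups compared, probe sets with 1 symbol alone, no variance trend, median centring, quantile normalization and leaving out each array. Leaving out 3 arrays with Atf3 above 8 or 6 arrays with Myl7 above 6, and correlations within the 13 arrays kept, were added after seeing the data.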

Additional observations from a re-analysis of the deposited data

Results flagged for a closer look

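Max in cKO sham replicate 4 stood far from the other mice of its group. Its log2 value was 7.16, while the other cKO sham hearts were at 7.69, 7.74 and 7.79. The gap to the nearest heart was 0.841 of the range of the group, above Dixon's 95% critical value for a group of 4. This test marks about 1 in 20 groups by chance, and 16 groups of values were tested. No interaction of genotype and surgery passed for the 4 genes.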

How the results depend on the processing

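None of the 28 differences of the 4 genes passed under any alternative, the smallest adjusted p being 0.239, for Zbtb17 in cKO against control averaged over surgery with median centring. Precision is limited by 4 arrays per group. Of 233 values under planned settings other than leaving out single arrays, 9 had the opposite sign, as did 44 of 448 values without single arrays. The cause was not tested. Csrp3 in cKO against control after sham, after TAC and averaged over surgery was 0.011, 0.00461 and 0.0077 with quantile normalization. With median centring Csrp3 was 0.056 after sham and 0.023 averaged over surgery, Csrp3 in TAC against sham in control hearts was 0.021, and Max in cKO against control after TAC was 0.0075. With array weights Myc in cKO against control averaged over surgery was -0.20 and the Csrp3 interaction 0.019.

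Without single arrays, Csrp3 ranged from -0.06 to 0.05 in cKO against control after sham, -0.065 to 0.018 after TAC, -0.041 to 0.014 averaged over surgery, -0.07 to 0.013 in TAC against sham in cKO, -0.065 to 0.045 in control, -0.046 to 0.0088 averaged over genotype and -0.073 to 0.037 in the interaction. Max ranged from -0.081 to 0.059 in cKO against control after TAC, -0.078 to 0.13 in TAC against sham in cKO and -0.08 to 0.025 averaged over genotype. Myc ranged from -0.55 to 0.20 in cKO against control after sham, -0.12 to 0.26 averaged over surgery and -0.37 to 0.16 in TAC against sham in cKO. Zbtb17 in TAC against sham in cKO ranged from -0.04 to 0.01. Values that kept their sign also moved by over 1.5 times. Without control sham replicate 3, Myc in TAC against sham averaged over genotype was -0.25, its interaction 0.11 and Bcl6 -0.047. Without control TAC replicate 3, Myc in cKO against control after TAC was 0.13. Without control TAC replicate 4, Zbtb17 in cKO against control after TAC was 0.0033. Without control sham replicate 1, Zbtb17 in TAC against sham was 0.0375 in control and 0.0075 averaged over genotype, and its interaction -0.06. Without cKO sham replicate 4 the Max interaction was 0.005.

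Without the 3 sham arrays with Atf3 above 8, Csrp3 was 0.052 in cKO against control after sham and 0.015 averaged over surgery, and in TAC against sham 0.0058 in cKO, 0.08 in control and 0.043 averaged over genotype. Myc was 0.40 in cKO against control after sham, 0.16, 0.24 and 0.20 in TAC against sham in cKO, in control and averaged, and -0.084 in the interaction. Max was 0.035 and Bcl6 0.27 in TAC against sham averaged over genotype. Without the 6 arrays with Myl7 above 6, Csrp3 was 0.077 and Myc 0.26 in cKO against control after sham, Max 0.05 in cKO against control after TAC, and in TAC against sham Zbtb17 was 0.03 in cKO and Csrp3 0.04 in control.

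Counts of all probe sets called were 5 for cKO against control after sham, 1 after TAC, 4 averaged over surgery and 0 for the rest. After sham the count was 0 with median centring, the 60th percentile filter, the replicate block, only probe sets with 1 symbol, without the 3 arrays and without the 6, 3 with no trend and with only the groups compared, 1 with array weights, and 0 to 27 without single arrays. After TAC it was 2 with quantile normalization and array weights, 0 with no trend, only the groups compared, without the 3 arrays and without the 6, and 1 to 2 without single arrays. Averaged over surgery it was 8 with quantile normalization, 2 with median centring, no trend and the replicate block, 1 with no filter and without the 6 arrays, 9 with the 60th percentile filter, 7 with only probe sets with 1 symbol, and 1 to 81 without single arrays, the 81 and the 27 without control sham replicate 4. TAC against sham in cKO gave 1 with only the groups compared and 0 to 1 without single arrays. In control it gave 5 with no filter, 1 with only the groups compared and with only probe sets with 1 symbol, and 0 to 2 without single arrays, and averaged over genotype 1 with no filter and 0 to 1 without single arrays. The replicate block changed no call of the 4 genes. Of the correlations, that of Csrp3 and Myc (r = 0.69, adjusted p = 0.0194 by permutation) did not pass without the 2 hearts farthest from the median (0.493) or within the 13 hearts (0.494), where Zbtb17 and Myc had r = 0.20 and Myc and Max -0.067.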
